A study of Mus musculus with 14 samples.

Results

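The genes described here build and shape the actin and tubulin cytoskeleton: tropomyosins, calponins, fascins, filamins, alpha-actinins, beta-thymosins, actin-related proteins, myosins and tubulins. They were chosen by name, as probes with a single gene symbol beginning Myo or Tpm and a digit, Myh, Myl, Tub followed by a, b or g, Actn, Actr, Arpc, Fln, Tmsb, Fscn or Cnn. The rule found 38 of 7680 probes, which stand for 35 of 6542 genes named by single-symbol probes, and Flna, Tuba4a and Myo9b had 2 probes each. The actin genes themselves and the myosin light chains were not among them. The study hybridised RNA of 11 mouse lines to 14 two-colour arrays, each with total RNA of 1 line in Cy5 and Stratagene mouse reference RNA in Cy3. By its title the series concerns the genes that single lines bring to such a reference, a commercial pool. There were 2 arrays for each of mammary tumor, fibroblast and myeloma, and 1 for each of the kidney, liver, macrophage, myoblast, embryo fibroblast, skin, T-cell lymphoma and testis lines. The labels give no strain, age, treatment or name for any line, their short annotation says primary tissue where the titles say cell line, and the reference of mammary tumor array 1 carries the further letters MRR. Nothing in them says whether repeat arrays used separate cultures, so a p-value reflects the spread seen between arrays or lines, which may be technical.

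Actin filaments carry tension and push membranes outward. Fascin bundles them into spikes, filamins and alpha-actinins cross-link them, the Arp2/3 complex branches them, tropomyosins coat them, and beta-thymosins hold single actin molecules in reserve. Nonmuscle myosin pulls on the filaments, a force that spread cells put on their substrate through stress fibres. Tubulins of the alpha and beta kind form microtubules, along which cargo is moved and chromosomes are parted.

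Each value is a log2 ratio of a line over the pool, so 0 is the pool's own level. Medians of the arrays lay between -0.51 (embryo fibroblast) and 0.12 (skin). In the fits named below, a probe passed at a Benjamini-Hochberg adjusted p under 0.05 over all 7423 features with a value in every line. Of the probes described here 37 were tested, and Tpm3 was not, since it had no value in the embryo fibroblast line. By list mean, marker genes of leukocytes and muscle followed the labels, and those of epithelium and matrix did so in part. Of 15 pan-leukocyte genes, 10 passed as higher in the 3 blood-cell lines, those labelled T-cell lymphoma, myeloma and macrophage, with list means from -0.39 to 1.36 there and from -3.03 to -1.89 in the other 8 lines. Single genes of this list went the other way in the myeloma line, with Ptprc at -3.72, Plek at -3.06 and Arhgdib at -2.91. Plek was also low in the T-cell lymphoma line (-3.54). Arhgdib was highest in the embryo fibroblast line (1.72). Of 18 muscle genes, 6 passed as higher in the myoblast line, whose list mean was 2.77. Mef2c was at -0.92 there and passed as higher in the macrophage and myeloma lines, and Tnnt1 also passed as higher in the T-cell lymphoma line. Of 9 fibroblast and matrix genes, 4 passed as lower in the blood-cell lines, with means from -4.35 to -3.16 against -2.24 to 0.95. The testis line (0.07) lay above the embryo fibroblast line (-1.06) on this list. Of 10 epithelial genes, 4 (Epcam, Elf3, Spint2 and Cldn7) passed as higher in the myeloma line. The epithelial list mean was 0.56 in the liver line but -2.55 in the kidney line, below the fibroblast line (-1.70), so a line named for an organ is not shown to be epithelial. The part of these cell-type differences in the results below was not tested.

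**Figure D1:**
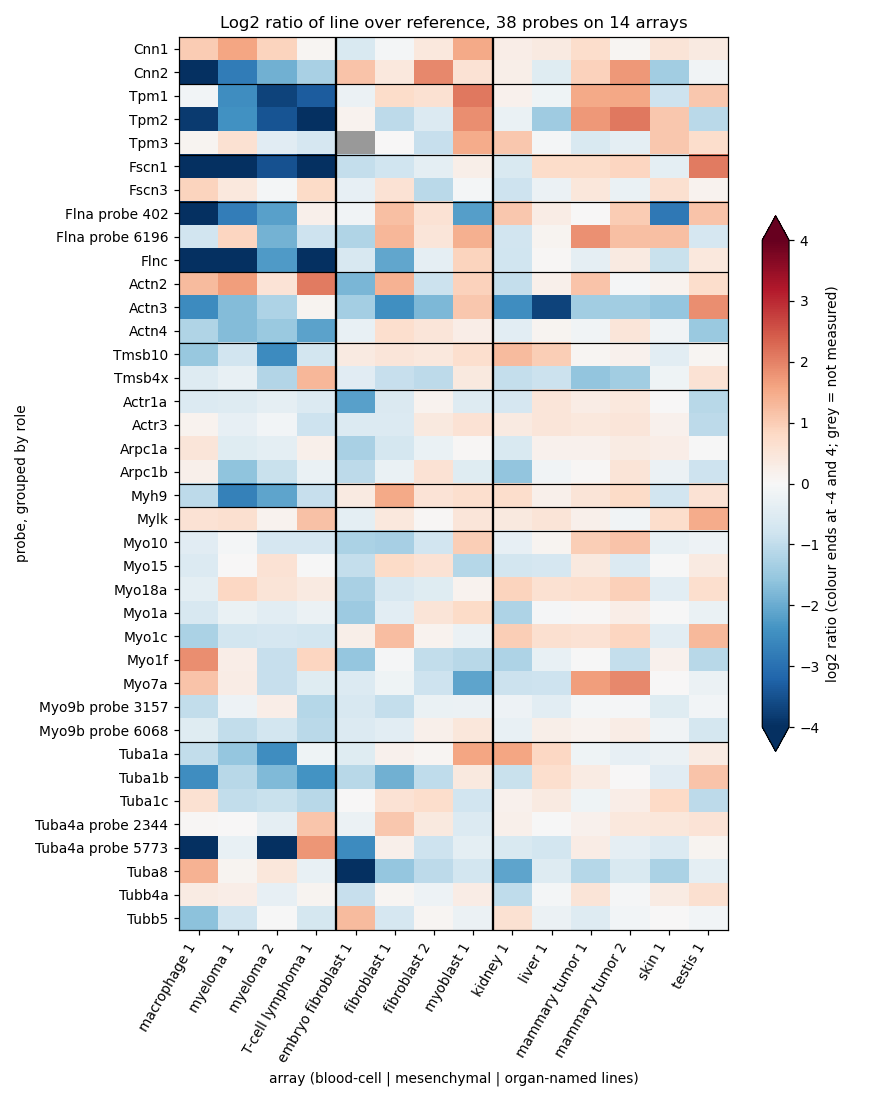
Log2 ratio of each array over the reference (colour, blue below and red above the pool) for 38 probes (rows, grouped by role) on 14 arrays (columns, grouped as blood-cell, mesenchymal and organ-named lines). The rows of Fscn1, Flnc and Tpm2 are blue on all 4 blood-cell arrays, from -5.60 to -2.28, while the grey cell is the missing value of Tpm3.

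Relative to the pool, several genes for proteins that bundle, cross-link, coat or pull actin filaments were lower in the blood-cell lines. With line means as the replicates, 6 of the 37 tested probes passed as lower in the 3 blood-cell lines than in the other 8 and 0 as higher (16.2% lower, against 2.09% of all tested features lower, 1.04% higher and 3.13% in either direction). The 6 were Fscn1, Flnc, Tpm2, Cnn2, Myh9 and Tmsb10. The median difference over the 37 was -0.35, beside 0.11 over all tested features. In RNA of whole cultures, fewer cells with a transcript and less of it per cell cannot be told apart.

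Fscn1 encodes fascin, the bundler of filopodia. Its log2 ratio was -5.54 in the macrophage line, -5.60 and -3.48 on myeloma arrays 1 and 2, and -4.24 in the T-cell lymphoma line. Elsewhere it ran from -0.96 (embryo fibroblast) through a median of -0.08 to 2.08 (testis). The groups did not overlap. The difference was -4.93 ± 0.53 (SE), a 30.6-fold lower level (limma on line means, adjusted p = 0.000598). Flnc encodes the filamin best known from striated muscle. It was at -5.17 in the macrophage line, -3.98 and -2.28 on the myeloma arrays and -4.13 in the T-cell lymphoma line, against -1.22 (fibroblast) to 0.90 (myoblast) elsewhere, with a median of -0.32. Again every blood-cell line lay below every other line (-3.87 ± 0.51, 14.6-fold, adjusted p = 0.00176).

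Tpm2 encodes a tropomyosin of muscle and spread cells. The macrophage line gave -3.83, the myeloma arrays -2.43 and -3.45 and the T-cell lymphoma line -4.23, while the others ran from -1.43 (liver) through a median of -0.06 to 1.93 (mammary tumor). No blood-cell line reached the lowest of the others (-3.85 ± 0.71, 14.4-fold, limma adjusted p = 0.0149). Cnn2 encodes calponin 2, which steadies filaments under tension. It was at -4.09 in the macrophage line, -2.80 and -1.94 on the myeloma arrays and -1.31 in the T-cell lymphoma line. The skin line, at -1.38, fell just below the T-cell lymphoma line, so here the groups overlapped (-2.90 ± 0.59, 7.44-fold, adjusted p = 0.0223).

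Myh9 and Tmsb10 showed smaller differences. Myh9 encodes the heavy chain of nonmuscle myosin IIA, the only Myh gene of the set. It was at -1.04 in the macrophage line, -2.71 and -2.10 on the myeloma arrays and -0.94 in the T-cell lymphoma line, against -0.78 (skin) to 1.02 (fibroblast) elsewhere (-1.89 ± 0.41, 3.71-fold, limma adjusted p = 0.0276). Tmsb10 encodes thymosin beta 10, a binder of actin monomers. It was at -1.53 in the macrophage line, -0.77 and -2.51 on the myeloma arrays and -0.72 in the T-cell lymphoma line, against -0.42 (skin) to 1.27 (kidney) elsewhere (-1.74 ± 0.38, 3.34-fold, adjusted p = 0.0281). For both, every blood-cell line lay below every other line, though by a narrow margin over skin.

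Without single lines some of these calls ended. Without the myeloma line the adjusted p was 0.100 for Myh9, 0.0938 for Tmsb10 and 0.0554 for Cnn2. Without the macrophage line it was 0.0737 for Cnn2 and 0.0856 for Tmsb10. It was 0.0661 for Tpm2 without the T-cell lymphoma line, 0.0526 for Myh9 and 0.0506 for Tmsb10 without the fibroblast line, and 0.0509 for Tmsb10 without the myoblast line. After quantile normalization it was 0.0566 for Tpm2, 0.0571 for Cnn2, 0.0660 for Myh9 and 0.0808 for Tmsb10, while Fscn1 and Flnc passed in all 22 other settings run. The arrays were grouped here into runs by the image numbers in their labels, and 2 of these runs hold both kinds of line. In the run with the T-cell lymphoma line and 3 others, Fscn1 differed by -3.46, Flnc by -2.96, Tpm2 by -3.85, Cnn2 by -1.91, Myh9 by -1.80 and Tmsb10 by -1.43. In the run with the macrophage and myeloma lines and 3 others, the values were -5.84, -4.19, -2.38, -3.67, -2.17 and -2.08, in the same order of genes.

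**Figure D2:**
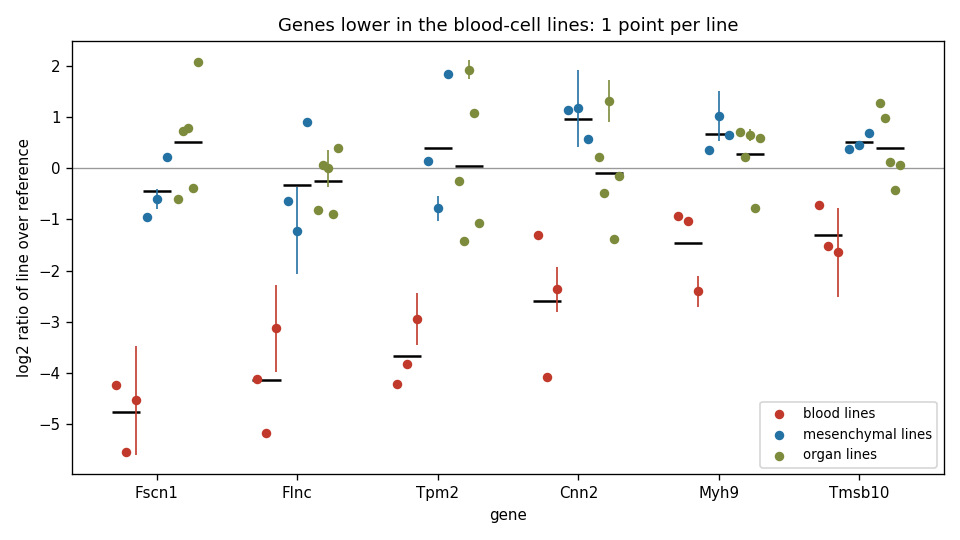
Log2 ratio over the reference (y axis) of the 6 genes that passed as lower in the blood-cell lines, with 1 point per line, coloured lines joining the 2 arrays of a line, and black bars for lineage means. The red points lie below all others for each gene but Cnn2, where skin at -1.38 lies below the T-cell lymphoma line at -1.31.

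Fscn1, Flnc, Tpm2 and Cnn2 had the widest of these differences, and their promoters are shown. Outside the blood-cell lines their levels parted, as with Fscn1 at 2.08 and Tpm2 at -1.07 in the testis line. In the skin line Tpm2 was at 1.08 and Cnn2 at -1.38. Whether the genes vary together was not tested. The stretches run from 250 bases before to 50 after the annotated start, from RefSeq, build GRCm38.p6: Fscn1 at chr5:142960105-142960404 (plus strand), Flnc at chr6:29432903-29433202 (plus strand), Tpm2 at chr4:43523505-43523804 (minus strand) and Cnn2 at chr10:79988350-79988649 (plus strand). Flnc has 2 starts in the table and the first is given. Capitals mark a CArG box (the site of serum response factor, a regulator of many actin genes), a GC box (GGGCGG) or a TATA box (TATAAA), searched on both strands, so that CCGCCC is a GC box read on the other strand.
Fscn1: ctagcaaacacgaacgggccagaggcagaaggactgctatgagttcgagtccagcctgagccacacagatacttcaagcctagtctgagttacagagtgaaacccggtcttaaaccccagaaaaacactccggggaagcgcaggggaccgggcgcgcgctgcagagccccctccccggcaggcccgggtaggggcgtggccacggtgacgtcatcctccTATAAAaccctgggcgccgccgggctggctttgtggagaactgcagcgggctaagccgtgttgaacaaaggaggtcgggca
Flnc: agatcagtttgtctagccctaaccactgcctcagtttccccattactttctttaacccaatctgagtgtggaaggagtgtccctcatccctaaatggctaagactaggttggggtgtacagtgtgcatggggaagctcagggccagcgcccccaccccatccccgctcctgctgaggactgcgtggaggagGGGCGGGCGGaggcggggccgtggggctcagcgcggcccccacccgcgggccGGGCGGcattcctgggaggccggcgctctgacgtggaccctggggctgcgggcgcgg
Tpm2: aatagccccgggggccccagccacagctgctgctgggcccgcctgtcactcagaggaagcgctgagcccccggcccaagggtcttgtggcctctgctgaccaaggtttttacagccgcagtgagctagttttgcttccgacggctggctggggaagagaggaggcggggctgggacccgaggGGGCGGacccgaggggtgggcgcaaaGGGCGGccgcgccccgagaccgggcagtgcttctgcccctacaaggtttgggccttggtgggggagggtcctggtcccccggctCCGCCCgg
Cnn2: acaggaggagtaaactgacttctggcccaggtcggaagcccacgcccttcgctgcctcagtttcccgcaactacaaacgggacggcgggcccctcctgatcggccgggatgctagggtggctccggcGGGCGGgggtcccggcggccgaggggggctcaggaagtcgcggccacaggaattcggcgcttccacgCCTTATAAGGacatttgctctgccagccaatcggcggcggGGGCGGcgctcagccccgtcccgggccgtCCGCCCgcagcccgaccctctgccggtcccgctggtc

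The TATA box of Fscn1 began at position -31 from the start site, and the CArG box of Cnn2 at -56. Flnc had 3 GC boxes, of which 2 overlapped, and Tpm2 and Cnn2 had 3 each. A CArG box was in 1.63% of all 32851 promoters of the table, a GC box in 35.7% and a TATA box in 13.6%. Promoters were found for 34 of the 35 genes. These genes have 43 promoters in the table, of which 1 (2.33%, Cnn2) had a CArG box, 29 (67.4%) a GC box and 4 (9.3%, of Fscn1, Fscn3, Myh9 and Myo10) a TATA box. A match of letters is a description of the window and not a site of binding. The motifs were chosen after the values were seen.

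Of the calponins, tropomyosins and fascins, paralogs behaved unlike. Cnn1, the smooth muscle calponin, differed between the blood-cell lines and the others by 0.40 ± 0.41 (limma adjusted p = 0.630), with 1.01 in the macrophage line, 1.57 and 0.89 on the myeloma arrays and 1.53 in the myoblast line, its highest lines. Tpm1 encodes a second tropomyosin. It was low on both myeloma arrays (-2.50 and -3.69) and in the T-cell lymphoma line (-3.34), but stood at -0.11 in the macrophage line, so the lineage difference of -2.71 ± 0.72 did not pass (adjusted p = 0.0608). Without the macrophage line it did (-3.75, adjusted p = 0.00997). Tpm3, measured on 13 arrays, had line means from -0.68 (T-cell lymphoma) to 1.49 (myoblast). Fscn3, a fascin known from testis, was at 0.15 in the testis line with line means from -0.84 (kidney) to 0.88 (macrophage). The differences between paralogs were not tested.

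Comparisons of each line with the mean of the remaining 10, each line weighted equally, in 1 limma fit over all arrays, gave 19 calls for 10 of the 37 probes. That is 4.67% of 407 tests, against 1.89% over all features. Of the 19, 16 fell in the blood-cell lines, 14 of these as lower. The 1545 calls over all features also fell mostly there, with 497 in the myeloma line (253 lower), 340 in T-cell lymphoma (175 lower) and 302 in macrophage (158 lower). Over all features, 6.7% passed in either direction in the myeloma line, 4.58% in T-cell lymphoma, 4.07% in macrophage, 2.21% in embryo fibroblast and 0.862% in mammary tumor. With the array number (1 or 2 in the titles) as a replicate block the calls numbered 52, and all 19 were among them. The share rose from 4.67% to 12.8% for these probes and from 1.89% to 6.27% for all features.

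In the macrophage line 5 probes passed as lower (2.13% of all features were lower) and 1 as higher (1.94%). The lower ones were Fscn1 (-4.79 ± 0.69, adjusted p = 0.0190), Flna probe 402 (-4.35 ± 0.49, 0.0104), Flnc (-4.23 ± 0.79, 0.0381), Cnn2 (-3.97 ± 0.64, 0.0243) and Tpm2 (-3.26 ± 0.47, 0.0190). After quantile normalization the adjusted p was 0.101 for Fscn1, 0.126 for Flnc and 0.0889 for Cnn2. For Flnc it was 0.0581 or 0.0626 without mammary tumor array 1 or 2. The higher one was Tuba8, an alpha-tubulin of restricted expression, at 1.40 against a mean of -1.22 in the others (2.62 ± 0.40, limma adjusted p = 0.0208, which became 0.0599 after quantile normalization and 0.0530 or 0.0511 without mammary tumor array 1 or 2). Myo1f, a myosin of leukocytes, was at 1.86 here, its highest value, but did not pass (2.42 ± 0.60, adjusted p = 0.0856, or 0.00901 with the replicate block).

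In the myeloma line 6 probes passed as lower (3.41% of all features) and 1 as higher (3.29%). Fscn1 differed by -3.69 ± 0.51 (limma adjusted p = 0.00918), Tpm1 by -3.18 ± 0.35 (0.00444), Myh9 by -2.55 ± 0.34 (0.00819), Tpm2 by -2.28 ± 0.35 (0.0129), Tuba1a by -2.25 ± 0.31 (0.00941) and Flna probe 402 by -1.90 ± 0.37 (0.0291). Tuba8 was higher by 1.40 ± 0.29 (0.0396). Tuba1a, an alpha-tubulin prominent in neurons, was at -1.54 on array 1 and -2.50 on array 2, while the mean of the other lines was 0.23. Leaving out 1 of the arrays raised several adjusted p-values. Without array 2 they were 0.104 for Tuba1a, 0.138 for Tpm2, 0.0571 for Tpm1, 0.0762 for Myh9, 0.149 for Flna probe 402 and 0.277 for Tuba8. Without array 1 they were 0.0811 for Myh9, 0.205 for Flna probe 402 and 0.143 for Tuba8. Without mammary tumor array 1 or 2 Tuba8 had 0.102 or 0.0931. After quantile normalization Flna probe 402 had 0.0547 and Tuba8 0.0593.

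In the T-cell lymphoma line 3 probes passed as lower (2.36% of all features) and 0 as higher (2.22%). They were Tpm2 (-3.70 ± 0.47, limma adjusted p = 0.0163), Tpm1 (-3.44 ± 0.47, 0.0172) and Fscn1 (-3.36 ± 0.69, 0.0476). The fascin call was the least firm. Its adjusted p was 0.0527 if fibroblast array 2 was left out, 0.0848 or 0.0868 for mammary tumor array 1 or 2, 0.0669 with the image run as a random block and 0.211 after quantile normalization. Actn4, the nonmuscle alpha-actinin, had its lowest value here (-2.14), with a difference of -1.74 ± 0.38 that did not pass (adjusted p = 0.0535, or 0.0267 with the replicate block and 0.0420 with image run as a random block). Tmsb4x, the major beta-thymosin, had its highest value here (1.33, difference 1.86 ± 0.42, adjusted p = 0.0572, or 0.0294 with the replicate block).

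Outside the blood-cell lines 3 calls were made. Tpm2 was higher in the mammary tumor line, at 1.75 on array 1 and 2.11 on array 2, beside a mean of -1.15 in the others (3.08 ± 0.35, 8.43-fold, limma adjusted p = 0.0249, with 0.714% of all features higher). The value in the myoblast line was as high, at 1.84 (2.98 ± 0.47, adjusted p = 0.0509). The mammary call ended if array 1 (adjusted p = 0.208) or array 2 (0.398) was dropped and when image run was a random block (0.0823), and in the run of array 2, where the myoblast line was the only other, the difference was 0.27. Actn3, the alpha-actinin of fast muscle fibres, was higher in the testis line, at 1.86 against a mean of -1.54 (3.41 ± 0.40, adjusted p = 0.0491, with 0.283% of all features higher and 0.0674% lower). The next line was myoblast at 1.08 (2.54 ± 0.40, adjusted p = 0.0509), and the lowest was liver at -3.71. The testis call ended in 6 of 12 other settings, at up to 0.145 without mammary tumor array 2.

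Tuba8 was lower in the embryo fibroblast line, at -4.97 against a mean of -0.58 (-4.40 ± 0.40, 21.0-fold, limma adjusted p = 0.0120, with 1.79% of all features lower). The call held in all 12 other settings, with an adjusted p of up to 0.0391. The next lowest line was kidney at -2.10. The median of all features was -0.42 in this comparison, and with each array centred on its median the call remained. The fibroblast, kidney, liver, myoblast and skin lines had no call among these probes in the fit of all arrays as deposited with no block, where all tested features passed at 1.23%, 0.0135%, 0.0135%, 0.795% and 0%. In the fibroblast line 0.835% were higher, and in the myoblast line 0.552% were higher and 0.242% lower. At an unadjusted p under 0.05, 29.7%, 21.6%, 10.8%, 32.4% and 8.11% of the 37 stood out in these lines, beside 13.9%, 17.4%, 8.19%, 14.5% and 8.11% of all features. With the replicate block 460 of the 7423 features passed in the myoblast line, and 5 of the 37 probes did. Actn3 (2.60, limma adjusted p = 0.0130), Flnc (2.66, 0.0180), Tpm2 (2.98, 0.0229) and Tpm1 (2.49, 0.0259) were higher and Myo7a (-2.12, 0.0429) was lower. In the liver line, where 28 of all features then passed, Actn3 was lower (-2.67, 0.0415). With the image run as a random block 227 of all features passed in the fibroblast line. Among them Flna probe 402 (1.82, 0.0336) and Actn4 (1.27, 0.0436) were higher.

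**Figure D3:**
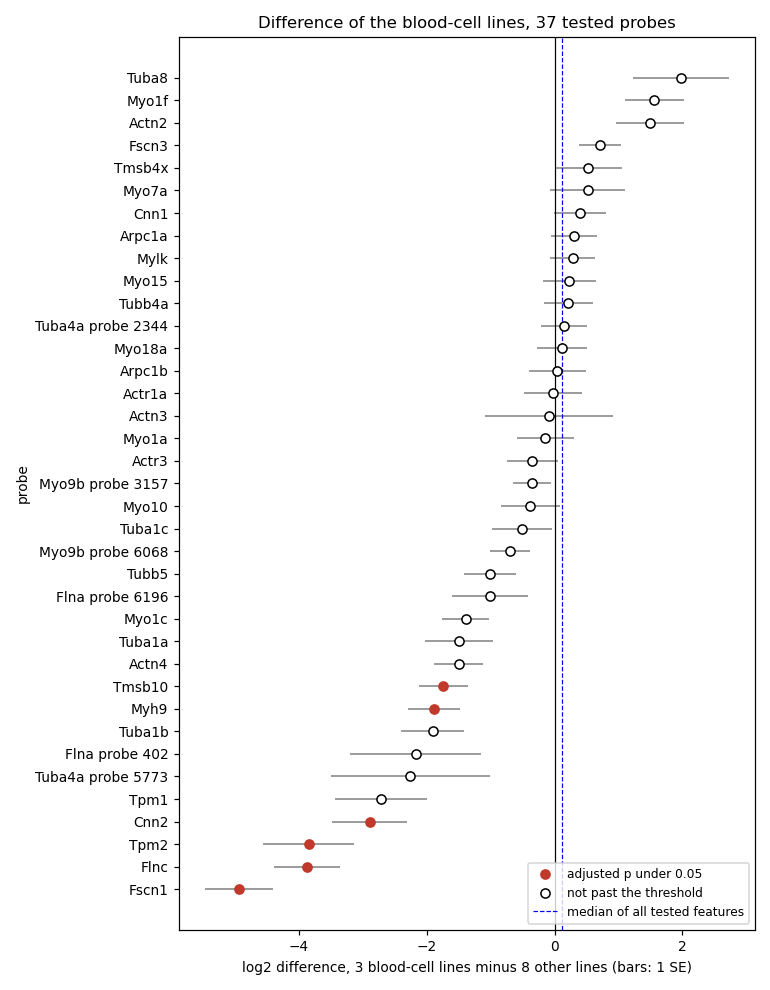
Log2 difference between the mean of the 3 blood-cell lines and that of the other 8 lines (x axis, bars of 1 SE) for the 37 tested probes (y axis), with filled points for an adjusted p under 0.05. The filled points all lie left of the dashed median of all features (0.11), from -4.93 for Fscn1 to -1.74 for Tmsb10.

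The 8 tubulin probes had no call in the comparison of lineages. Tuba1b, a general alpha-tubulin, came nearest, at -2.48 in the macrophage line, -1.12 and -1.78 on the myeloma arrays and -2.38 in the T-cell lymphoma line (-1.91 ± 0.50, limma adjusted p = 0.0569). The fibroblast line reached -1.92 on array 1, so the groups overlapped. Tubb5, the widespread beta-tubulin, had each blood-cell line mean below all others, though its arrays overlapped and it did not pass (-1.01 ± 0.40, adjusted p = 0.184), and its highest value was 1.27 in the embryo fibroblast line. Tuba8 lay above all other lines in each blood-cell line (1.98 ± 0.75, adjusted p = 0.161). Tuba1a was highest in the kidney (1.57) and myoblast (1.56) lines. Tuba1c ranged from -1.10 to 0.81 and Tubb4a, a beta-tubulin of brain, from -1.02 to 0.64.

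Over the 37 probes, 7 had every blood-cell line mean below every other line mean (18.9%, against 3.53% of all tested features) and 2 had every one above (5.41%, against 4.27%). The 7 were Fscn1, Flnc, Tpm2, Myh9, Tmsb10, Tubb5 and Myo1c, and the 2 were Tuba8 and Actn2. Actn2, the alpha-actinin of the muscle Z-disc, was at 1.27 in the macrophage line, 1.66 and 0.56 on the myeloma arrays and 2.07 in the T-cell lymphoma line. Its difference did not pass (1.49 ± 0.53, limma adjusted p = 0.142), and the fibroblast arrays, at 1.40 and -0.86, were 2.26 apart.

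Among the 9 probes of unconventional myosins, which move membranes and cargo along actin, none passed in any comparison of all arrays as deposited with no block. With the replicate block Myo1f passed in the macrophage line, Myo7a in the mammary tumor and myoblast lines, and Myo18a (-1.56, adjusted p = 0.0320) and Myo1f (-1.48, 0.0303) as lower in the embryo fibroblast line. Of the 7423 features, 937 passed in the embryo fibroblast line with this block, 696 in macrophage, 460 in myoblast and 239 in mammary tumor. At an unadjusted p under 0.05, Myo1c, Myo1f and Myo9b probe 6068 differed between the blood-cell lines and the others. At that level 20% of all features did so, and 43.2% of the 37 probes. Myo1c was at -1.28 in the macrophage line, -0.73 and -0.67 on the myeloma arrays and -0.74 in the T-cell lymphoma line, against -0.43 (skin) to 1.31 (testis) elsewhere (-1.39 ± 0.37, limma adjusted p = 0.0618). Myo1f differed by 1.56 ± 0.46 (adjusted p = 0.0801), with 0.27 and -0.92 on the myeloma arrays. Myo7a, known from inner-ear hair cells, was at 1.68 and 1.92 on the mammary tumor arrays and at -2.12 in the myoblast line. Its mammary difference was 2.28 ± 0.38 (adjusted p = 0.0546, or 0.0233 with the replicate block and 0.0147 after quantile normalization). Myo10, a motor of filopodia, was highest in the mammary tumor line too, at 0.97 and 1.15, with 0.98 in the myoblast line. Myo18a, Myo1a and Myo15 had ranges of line means of 2.18, 2.22 and 1.81.

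The Arp2/3 subunits had ranges somewhat under the typical feature's. Line means of Arpc1a, Arpc1b and Actr3 spanned 1.80, 1.87 and 1.64, against a median range of 2.04 over all features and 2.73 over the 37 probes. The blood-cell lines differed from the others by 0.05 ± 0.44 for Arpc1b, a subunit enriched in blood cells (limma adjusted p = 0.971). With the replicate block Arpc1a passed as lower in the embryo fibroblast line (-1.26, adjusted p = 0.0445) and Arpc1b in the myeloma line (-1.12, 0.0317). In these lines 937 and 1141 of the 7423 features passed with that block. Actr3 was lowest in the testis line (-1.06). Actr1a, a dynactin subunit, was at -2.19 in the embryo fibroblast line, with -1.11 in testis as the next lowest (-1.87 ± 0.39, adjusted p = 0.0651, or 0.0231 with the replicate block). Mylk, which encodes the kinase of myosin light chains, was highest in the testis (1.48) and T-cell lymphoma (1.17) lines and did not pass in any comparison.

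The mesenchymal lines (fibroblast, embryo fibroblast, myoblast) were compared with the 5 lines named for an organ (mammary tumor, liver, testis, skin, kidney). None of the 37 probes passed in limma on line means, and 0% of all features did. At an unadjusted p under 0.05, 1 of the 37 and 6.26% of all features stood out. The 1 was Myo18a (-1.08, adjusted p = 0.789). The widest difference was that of Tuba8 (-1.30, adjusted p = 0.881).

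Values for genes with 2 probes differed by probe. For Flna, the filamin of nonmuscle cells, probe 402 was at -4.71 in the macrophage line, -2.85 in the skin line and -2.21 in the myoblast line, where probe 6196 was at -0.75, 1.22 and 1.43. The probes lay more than 1 apart on 9 of 14 arrays, and their correlation over the arrays, which share the reference, was 0.06. The macrophage difference was -4.35 by probe 402 and -2.61 with the probes averaged (limma adjusted p = 0.0407), and the myeloma call ended (-1.25, 0.101). For Tuba4a, probe 5773 was at -6.83 in the macrophage line and -6.87 on myeloma array 2, but at -0.31 on myeloma array 1, while probe 2344 gave 0.04, -0.37 and 0.03. The gap of 6.57 between the myeloma arrays stood beside a median gap of 0.44 over all features. Without myeloma array 1 the probe passed as lower in the myeloma line (-5.86, adjusted p = 0.0134) and, in the T-cell lymphoma line, as higher (3.63, 0.0364). Without array 2 it did neither. In the macrophage line it passed as lower when either of these arrays was left out (-5.82 and -6.47). With both arrays it did not pass in the fit with no block (-6.15, limma adjusted p = 0.153), but did with the replicate block (-6.56, 0.0392). Without the T-cell lymphoma line, at 1.76, it passed between the lineages (-4.58, 0.0105). The probes of Myo9b differed by at most 0.99.

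**Figure D4:**
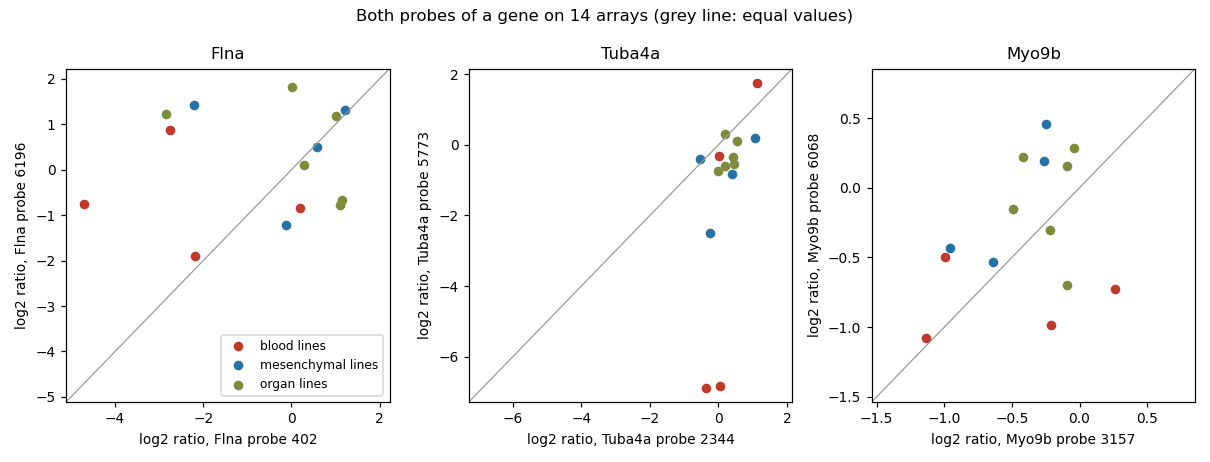
Log2 ratios of the 2 probes of Flna, Tuba4a and Myo9b (x and y axes), 1 point per array, coloured by lineage, with a grey line of equal values. For Tuba4a 2 red points lie near -6.8 by probe 5773 and near 0 by probe 2344, while for Myo9b no array is more than 0.99 off the line.

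Other cytoskeletal genes came from lists written from textbook knowledge, and their counts stand beside 2.09% of all features lower and 1.04% higher. Of 67 actin and actin-binding genes 3 passed as lower in the blood-cell lines and 3 as higher, with a median difference of -0.39 beside 0.11 over all features. Lower were Actg1 (gamma-actin, -1.32 ± 0.33, limma adjusted p = 0.0484), Vcl (vinculin, of adhesion sites, -1.92 ± 0.38, 0.0201) and Cttn (cortactin, -1.70 ± 0.42, 0.0484). Actb, the beta-actin gene, did not pass (0.91 ± 0.42, adjusted p = 0.251). The higher ones were the leukocyte genes Coro1a (4.67 ± 0.48), Lcp1 (4.34 ± 0.64) and Hcls1 (3.21 ± 0.36), which bundle or regulate actin and were also in the list of pan-leukocyte markers. Of 26 genes of microtubule-associated proteins and motors 1 passed as lower, the plus-end protein gene Mapre3 (-2.91 ± 0.44, 0.00434), and 0 as higher. Of 17 intermediate filament genes 1, Vim (vimentin, -2.98 ± 0.61, 0.0228), passed as lower, with -1.46 in the macrophage line, -4.12 in the myeloma line and -2.75 in the T-cell lymphoma line.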

How the data were processed

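The deposited table held 14 columns of values, taken as log2 ratios of line (Cy5) over reference (Cy3) as processed by the authors; per the labels, no array had the dyes exchanged. Background correction, normalization and filters: not given in the sources used here, nor are the log base and direction. These were judged from the mean over lines of the unlogged ratio, which should be near 1 for an equal pool: its median was 1.00 read as log2, 1.07 as natural log, 1.87 as log10 and 1.20 with the direction exchanged. Base 2 is thus only weakly parted from natural logs, and every fold rests on it. Whether arrays were centred is unknown.

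The 80 Gapdh spots were averaged. The platform annotation named 6835 probes with 1 gene, 4 with several and left 841 unlisted; 6809 were matched to RefSeq (GRCm38.p6). Tests used limma 3.58.1 in R 4.3.3 (lmFit and eBayes, two-sided), and figures matplotlib 3.10.9. The line fit had 3 residual degrees of freedom, from the lines with 2 arrays, plus 3.75 from moderation; the spread of lone arrays is assumed equal to theirs. The lineage fit of 11 line means had 8. Where only 1 array exists no replicate check is possible, and the number of arrays limits precision. The code of the fits was run on simulated data with independent noise, at the spread of paired arrays, and an added shift. These data had no spread between lines of a lineage, so they cannot check the error of the lineage fit.

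Named were all probes that passed in a comparison and, within each role, the 3 with the widest range of line means and the 1 with the narrowest; others, and single paralogs, were named after their values were seen. The genes, lists and groups were chosen with earlier results of these data known. The numbers in the titles pair arrays in part: the difference of array 2 minus array 1 correlated across features at 0.541, 0.330 and 0.379 between the 3 lines with 2 arrays, and lines without a number were counted as 1. Alternatives were centring, quantile normalization, complete features, averaged probes, arrays or lines left out, and image run or array number as a block.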

Additional observations from a re-analysis of the deposited data

Results flagged for a closer look

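In 6 cases 1 line stood apart from the others of its group of 5 or 8 lines: its gap to the nearest line, divided by the range of the group, was above Dixon's 95% critical value. By that level chance gives about 1 such group in 20. For each of the 37 tested probes 2 groups were looked at, so several of the 6 cases would be found by chance alone. The 5 organ lines are also part of the 8, and the share over all features was not computed. The skin line was the lowest of the 5 organ lines for Flna probe 402 (-2.85) and for Myo18a (-0.42), and the lowest of the 8 lines other than blood-cell lines for Myh9 (-0.78). The embryo fibroblast line was the lowest of those 8 for Tuba8 (-4.97) and for Tuba4a probe 5773 (-2.50). The testis line was the lowest of the 5 organ lines for Actr3 (-1.06). Each of these values rests on 1 array. The skin array was alone in its image run, so line and run cannot be told apart there.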

How the results depend on the processing

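No call of a named probe changed direction under any alternative run. The 19 line calls became 52 with the replicate block, in a fit with the array number as a term in which the share over all features also rose, from 1.89% to 6.27%, and stayed between 13 and 26 without single arrays and between 16 and 22 otherwise. The 6 lower calls of the blood-cell comparison became 2 after quantile normalization, Fscn1 and Flnc. They became 8 with each array centred, adding Actn4 (adjusted p = 0.0282) and Tuba1b (0.0402), from 4 to 7 calls without single lines, and from 6 to 9 without single arrays. Without myeloma array 2, or without the myeloma line, 1 of the calls was higher, Myo1f (limma adjusted p = 0.0316 and 0.0371). In the mammary tumor line 328 of all features passed after quantile normalization, against 64 before. Myo7a (2.53, limma adjusted p = 0.0147) and Tpm1 (1.98, 0.0171) then also passed as higher, and Tmsb4x (-1.99, 0.0171) as lower. The comparison of mesenchymal with organ lines gave 0 calls in each setting run. The causes of these changes were not tested. Fits without an array or a line also have fewer samples, and their calls both rose and fell. Spot intensities were not used here, so dim spots cannot be told from low ratios.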
